A study of Homo sapiens with 4 samples.

Results

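Open chromatin of the UGT2B gene cluster was examined in LNCaP cells, an androgen-sensitive human prostate cancer line, by ATAC-seq, an assay that uses a transposase to cut and tag DNA where chromatin is accessible. The cluster was taken as the listed open regions (peaks) whose summit, the position with most tags, lies between 69.35 and 70.55 Mb of chromosome 4 in the hg19 build. It held 62 of the 194551 peaks listed for vehicle and 44 of the 163735 peaks listed for GSK2879552. Within it lie 4 named genes at approximate positions: UGT2B17 at 69.40 to 69.43 Mb, UGT2B15 at 69.51 to 69.54 Mb, UGT2B10 at 69.68 to 69.70 Mb and UGT2B11 at 70.07 to 70.08 Mb.

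One group of cells received vehicle. The other received GSK2879552, a small molecule that inhibits the histone demethylase LSD1 (KDM1A). The treatment text shared by all 4 samples gives 50 µM of the inhibitor for 4 hours in RPMI1640 with 5% CSS, and the growth text gives RPMI-1640 with 10% FBS for maintenance. The 4 samples are 2 sequencing lanes per condition, labelled as technical replicates, and both lanes of a condition point to 1 peak list. Each condition was therefore 1 library of 1 cell line with no replicate, no test between conditions was possible, and every interval below is a 95% interval for counting error only. Marker genes of the line were not analysed here, since no other gene positions of this build were used.

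UGT2B enzymes are UDP-glucuronosyltransferases of the endoplasmic reticulum. They join glucuronic acid to small lipophilic molecules, which makes these water-soluble and ready for excretion. In prostate cells UGT2B15 and UGT2B17 inactivate dihydrotestosterone and its metabolites in this way, and androgen lowers the expression of both genes. LSD1 removes methyl groups from histone H3 and works with the androgen receptor and with corepressor complexes.

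The sequences just upstream of the genes differ between members. RefSeq (GRCh38) gave the 250 bases before the start of 3 of the 4 genes, UGT2B15, UGT2B10 and UGT2B11. They are shown, 5′ to 3′ on the strand of the gene, because they show how alike the members are and which of them holds a receptor half-site. Capitals mark matches on either strand to AGAACA (one side of an androgen receptor element), TGTTTAC and TGTTTGC (forkhead), GTTAAT (one side of an HNF1 element) and TATAAA.
UGT2B15: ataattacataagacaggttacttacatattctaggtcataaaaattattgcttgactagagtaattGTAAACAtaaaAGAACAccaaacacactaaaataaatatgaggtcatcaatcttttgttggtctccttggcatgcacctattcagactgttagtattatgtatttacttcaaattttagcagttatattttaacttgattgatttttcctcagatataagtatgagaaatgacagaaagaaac
UGT2B10: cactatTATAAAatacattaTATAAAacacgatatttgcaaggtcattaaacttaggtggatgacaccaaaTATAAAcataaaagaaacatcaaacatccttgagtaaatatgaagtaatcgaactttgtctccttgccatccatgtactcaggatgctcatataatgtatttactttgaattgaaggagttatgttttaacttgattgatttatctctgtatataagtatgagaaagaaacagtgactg
UGT2B11: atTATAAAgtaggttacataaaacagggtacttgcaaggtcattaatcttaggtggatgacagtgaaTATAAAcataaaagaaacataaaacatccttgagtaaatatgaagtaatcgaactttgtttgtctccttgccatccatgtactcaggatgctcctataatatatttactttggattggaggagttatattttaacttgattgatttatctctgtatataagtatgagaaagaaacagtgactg

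UGT2B15 held 1 AGAACA, 172 bases before the start, and 1 TGTTTAC on the reverse strand, 183 bases before the start, so the motifs lie side by side. UGT2B10 held TATAAA at 244, 230 and 179 bases before its start, and UGT2B11 held it at 248 and 183 bases. Neither of these had a match to the other 4 motifs. Of 35116 promoter windows of the same length, 12.4% held AGAACA, 2.98% TGTTTAC, 3.23% TGTTTGC, 6.23% GTTAAT and 10.7% TATAAA. UGT2B10 and UGT2B11 were 90.2% identical over 254 aligned columns, whereas UGT2B15 was 70.6% identical to UGT2B10 and 71.4% to UGT2B11. A match is a run of letters and not a bound site. Whether a listed peak covers one of these windows was not determined, because the peaks and the sequences are of different builds.

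The cluster had fewer listed open regions after GSK2879552. The window held 51.7 peaks per Mb with vehicle and 36.7 per Mb with GSK2879552, 29.0% fewer, against 16.8% fewer on chromosome 4 and 15.8% fewer over chromosomes 1 to 22, X and Y. Peaks covered 14.6 kb of the window with vehicle and 8.47 kb with GSK2879552, 42.1% less, against 24.9% less over those chromosomes. These falls rest on 62 and 44 peaks and have no counting interval, so whether they exceed those of the genome is not resolved. The median width was 174.5 bp with vehicle and 158 bp with GSK2879552, a narrowing also seen on chromosome 4 (181 and 165 bp) and over all chromosomes compared (189 and 171 bp). Open sequence thus made up 1.22% and 0.706% of the cluster.

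By summit tags, the peaks of the cluster were somewhat lower than the typical peak of the genome in both libraries. Tags at the summit, recovered as whole numbers from the deposited fold and p, ranged from 10 to 48 with vehicle (median 17) and from 10 to 45 with GSK2879552 (median 16). The medians over chromosomes 1 to 22, X and Y were 22 and 20 tags. In 2386 stretches of 1.2 Mb, the length of the cluster, the median was 81 vehicle peaks and 66 GSK2879552 peaks. Fewer vehicle peaks than in the cluster lay in 31.4% of these stretches, and fewer GSK2879552 peaks in 25.6%. The caller's local background was at its genome-wide minimum for 82.3% of vehicle peaks and 88.6% of GSK2879552 peaks, against 40.3% and 38.7% over all chromosomes compared. Relative to that background the peaks were not clearly weaker. The median deposited fold over background was 5.29 with vehicle and 4.58 with GSK2879552, against 5.44 and 4.34 over those chromosomes. A −log10 q of at least 5 was reached by 80.6% and 63.6% of peaks, against 74.9% and 62.8%.

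Much of the difference in number lay in weak vehicle peaks. A peak with at least 1 bp of overlap with a peak of the other list was called partnered. With vehicle, 28 of 62 peaks had no partner, or 45.2% (exact interval 32.5 to 58.3%), beside 38.5% over all chromosomes compared, a share that the interval holds. With GSK2879552, 7 of 44 had none, or 15.9% (6.64 to 30.1%), beside 23.5%, which lies within that interval too. The 28 unpartnered vehicle peaks had 10 to 23 tags (median 14), and the 7 unpartnered GSK2879552 peaks had 10 to 14 (median 11).

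Partnering followed peak height. Under 15 tags, 3 of 18 vehicle peaks had a partner, and from 15 to 19 tags 12 of 24 did. All 14 vehicle peaks with at least 30 tags were partnered. The same bins over all chromosomes compared gave 21.5%, 38.0% and 95.9%. Among GSK2879552 peaks, 9 of 16 under 15 tags had a partner, beside 38.3% of all, and all 28 peaks with 15 or more tags did. Over all chromosomes compared, 74.4% of GSK2879552 peaks with 15 to 19 tags, 94.7% with 20 to 29 and 99.3% with 30 or more were partnered.

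**Figure D1:**
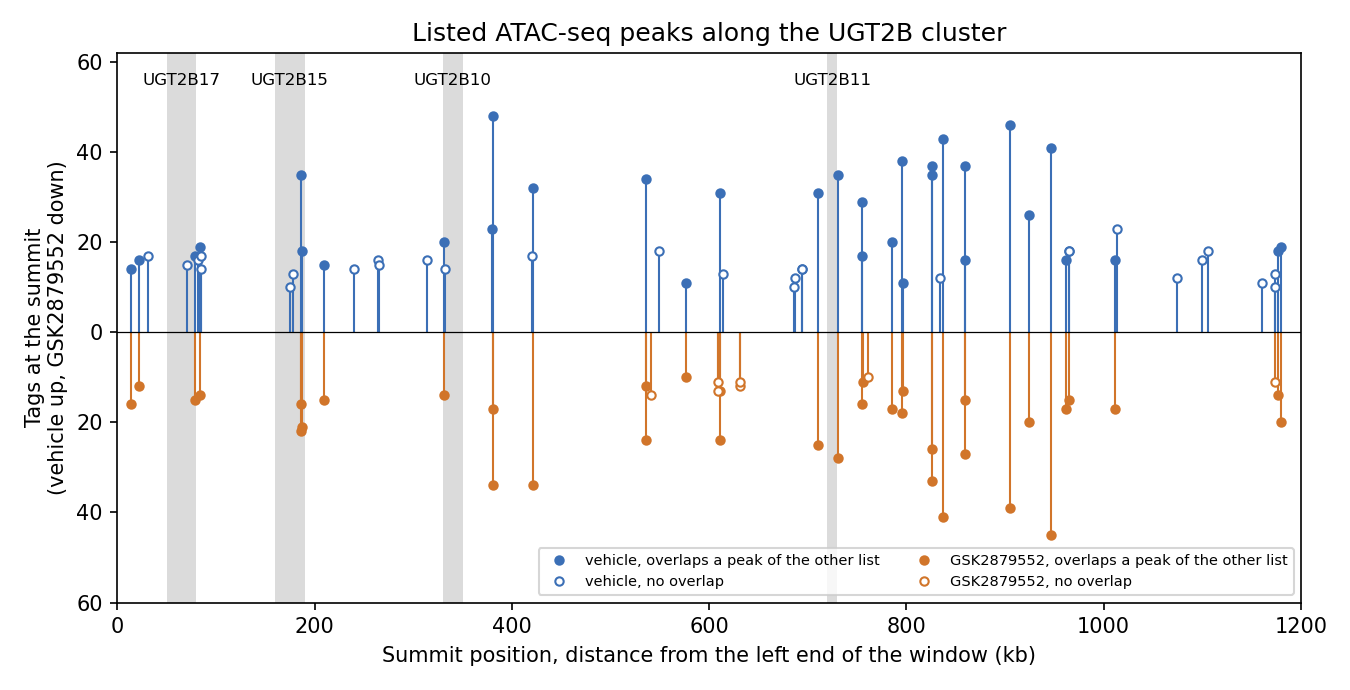
Summit tags of every listed peak along the cluster, with distance from the left end of the window in kb on the horizontal axis and tags on the vertical axis, vehicle upward and GSK2879552 downward. Grey bands are the approximate gene intervals, filled circles overlap a peak of the other list and open circles do not; the open circles are all at or below 23 tags, and 8 of the 10 tallest vehicle peaks by chromosome 4 tags stand to the right of the UGT2B11 band.

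UGT2B17, with UGT2B15 the main androgen-conjugating enzyme of the prostate, had the widest gap in peak number among the 4 genes. Each gene was given the peaks inside its interval or within 25 kb of it. UGT2B17 had 7 vehicle peaks and 2 GSK2879552 peaks, and 5 of the vehicle peaks had no partner. Of all vehicle peaks of 14 to 19 tags, the range of these 7, 64.6% had none, so 5 of 7 is near the background. In order along the chromosome the vehicle peaks had 17, 15, 17, 16, 19, 17 and 14 tags, and the GSK2879552 peaks had 15 and 14 tags. All of these values lie close together and near the lower end of the cluster's range.

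The highest of them, at chr4:69434023-69434209, had 19 tags with vehicle (exact Poisson interval 11.4 to 29.7) and 14 with GSK2879552 (7.65 to 23.5). It was the first of 3 neighbouring vehicle peaks, of which the others, at chr4:69434396-69434547 with 17 tags and chr4:69434905-69435032 with 14 tags, were listed with vehicle only. The second paired peak, at chr4:69428954-69429111, had 17 and 15 tags. Over both pairs the ratio of GSK2879552 to vehicle tags, scaled for depth by 1.18 as described in the processing, was 0.685 (exact binomial interval 0.405 to 1.15). The intervals of the tag numbers overlap for every UGT2B17 peak that was in both lists.

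UGT2B15, which conjugates dihydrotestosterone and androstanediol, carried the strongest gene peak on the left side of the cluster. It had 5 vehicle peaks with 10, 13, 35, 18 and 15 tags and 4 GSK2879552 peaks with 16, 22, 21 and 15 tags. The strongest vehicle peak, at chr4:69536150-69536729, was 580 bp wide with 35 tags. In the GSK2879552 list that stretch held 2 narrower peaks with 16 and 22 tags. The scaled ratio of the highest summits there was 0.535 (0.299 to 0.937). The neighbouring pair at chr4:69537011-69537290 went the other way in raw tags, with 18 for vehicle and 21 for GSK2879552 (scaled ratio 0.992, 0.503 to 1.98). Another paired region, at chr4:69559288-69559415, had 15 tags in both lists.

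Over the 2 one-to-one pairs of UGT2B15 the scaled ratio was 0.928 (0.562 to 1.54), which leaves out the wide peak that was divided. The 2 vehicle peaks with no partner were the weakest of the gene, at chr4:69524528-69524695 with 10 tags and chr4:69528282-69528381 with 13 tags. Of vehicle peaks under 15 tags over all chromosomes compared, 21.5% were partnered.

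UGT2B10 is better known for conjugating nitrogen atoms of drugs and nicotine than for steroids. It had 3 vehicle peaks with 16, 20 and 14 tags and 1 GSK2879552 peak with 14 tags. The pair at chr4:69681440-69681685 had 20 tags with vehicle (12.2 to 30.9) and 14 with GSK2879552 (7.65 to 23.5), a scaled ratio of 0.595 (0.278 to 1.24). The other vehicle peaks, at chr4:69663490-69663599 and chr4:69682189-69682295, had no partner, as did 64.6% of all vehicle peaks of 14 to 19 tags. The 2 tag intervals of the pair overlap.

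UGT2B11, a relative linked mainly to fatty acid metabolites, had 3 peaks, all listed in both conditions and all in the flanks of the interval. Of all vehicle peaks of 29 to 35 tags, the range of these 3, 88.9% were partnered. With 50 kb instead of 25 kb around the gene, the vehicle list gave 8 peaks, 4 without a partner, and the GSK2879552 list 5, 1 without. Those 4 had 10 to 14 tags, and 21.5% of vehicle peaks under 15 tags were partnered over all chromosomes compared. The unpartnered GSK2879552 peak had 10 tags, and 38.3% of GSK2879552 peaks under 15 tags were partnered. At chr4:70060013-70060285 there were 31 vehicle and 25 GSK2879552 tags, at chr4:70080320-70080824 there were 35 and 28, and at chr4:70104916-70105355 there were 29 and 16. Vehicle was higher at each of them before and after scaling. The last had the second lowest ratio of the cluster, 0.469 (0.238 to 0.893). Over the 3 pairs the scaled ratio was 0.618 (0.446 to 0.851), an interval that excludes 1 but holds the 0.683 of all paired peaks of the genome.

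The strongest peak of UGT2B15, UGT2B10 and UGT2B11 lay near the end of the interval where the gene starts. RefSeq places UGT2B15 and UGT2B11 on the minus strand and UGT2B10 on the plus strand, so that UGT2B15 and UGT2B11 begin at the right end and UGT2B10 at the left. The strongest vehicle summit was 3.46 kb from that end for UGT2B15, 1.57 kb for UGT2B10 and 0.647 kb for UGT2B11. The strongest GSK2879552 summit was 3.36 kb away for UGT2B15, 1.59 kb for UGT2B10 and 0.70 kb for UGT2B11. For UGT2B15 a lower peak lay nearer to that end, at 2.87 kb with vehicle and 2.88 kb with GSK2879552. UGT2B10 had only 1 GSK2879552 peak. Wherever a gene had a next strongest peak, its tag interval overlapped that of the strongest, so their order is not resolved. UGT2B17 was left out, since its strand was not read here, and how often this holds for other genes was not tested. The interval ends are rounded, so these are distances to the end of the stated interval and not to the start site.

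**Figure D2:**
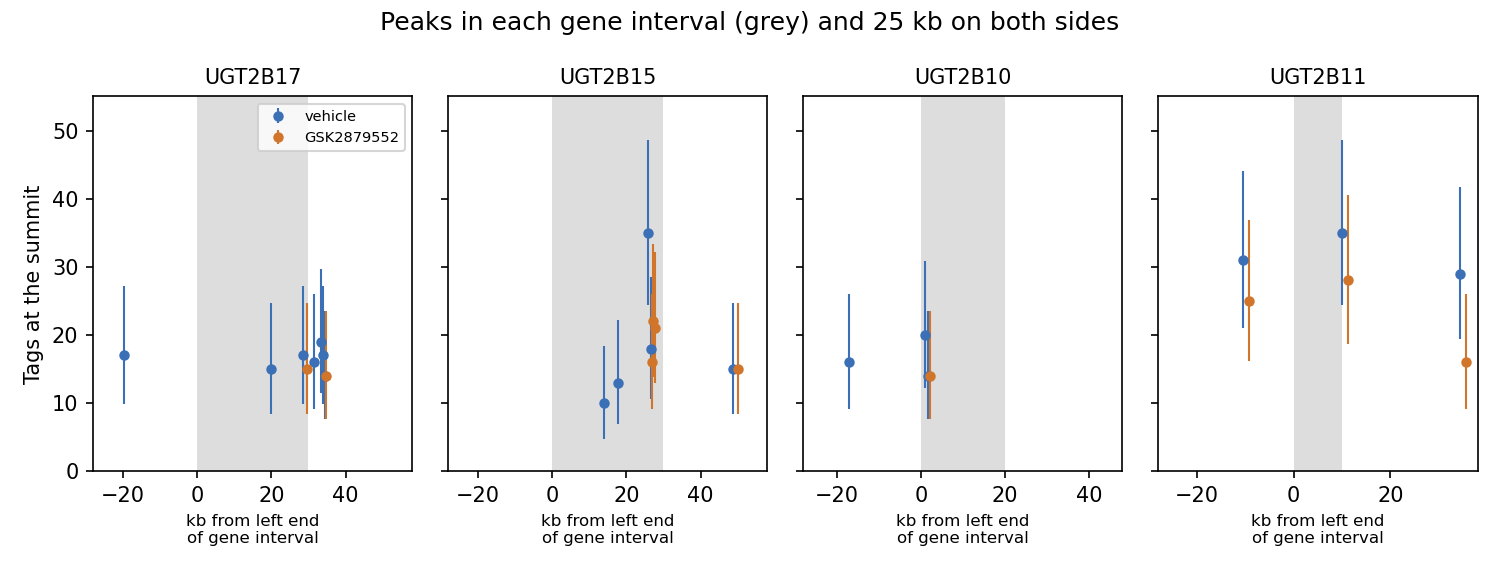
Summit tags of each peak in the 4 gene intervals (grey) and 25 kb on both sides, with vertical bars for the exact Poisson 95% interval, distance from the left end of the interval in kb on the horizontal axis, and GSK2879552 points moved slightly right for legibility. UGT2B17 shows 7 vehicle points against 2 GSK2879552 points, all between 14 and 19 tags, and UGT2B11 shows 3 points of each colour with vehicle the higher in each pair.

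Over all 4 genes, 18 vehicle and 10 GSK2879552 peaks lay in or near a gene, and 44 and 34 lay elsewhere in the cluster. The median was 17 vehicle tags in both classes, and 16 against 16.5 tags with GSK2879552. The scaled ratio over the 8 gene pairs was 0.684 (0.547 to 0.854). It was 0.742 (0.654 to 0.843) over the other 21 pairs, and the intervals overlap. No difference between the peaks of the 4 genes and the rest of the cluster was detectable at this depth. The rest is not free of genes, since RefSeq also places UGT2A3, UGT2B7, UGT2B28, UGT2B4, UGT2A2 and UGT2A1 in this stretch of chromosome 4, and they were not located in hg19 here.

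At the 29 regions with 1 peak in each list, summed tags were lower after GSK2879552, by a margin near that of the genome, while few single regions were resolved. Vehicle tags summed to 711 and GSK2879552 tags to 608. The scaled ratio of the sums was 0.727 (0.652 to 0.812), against 0.683 over 110134 pairs of the genome and 0.684 over chromosome 4. Without scaling for depth it was 0.855. The median scaled log2 ratio was -0.47 (interquartile range -0.65 to -0.16), against -0.56 for the genome. The interval of the cluster's ratio excludes 1 and holds the genome value. Among 2065 stretches of 1.2 Mb with enough pairs the median ratio was 0.674, and 95.8% were below that of the cluster. These stretches were not matched for peak height, and pairs of the cluster had a median of 19 vehicle tags against 31 in the genome. Genome pairs with under 30 tags over both lists had a ratio of 0.865, those with 30 to 39 had 0.706, 40 to 59 had 0.643 and 60 or more 0.683. The cluster had 0.711, 0.790, 0.542 and 0.759 (4, 13, 4 and 8 pairs), and each interval holds the genome value.

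After scaling, 28 of the 29 pairs were lower with GSK2879552, beside 94.2% of pairs in the genome. A fall of at least 1.5-fold was seen in 10 of 29, or 34.5%, beside 45.5%. Before scaling, 20 of 29 had fewer tags with GSK2879552, or 69.0%, beside 83.3%, while 8 had more and 1 had the same number. The genome shares were not matched to the cluster for peak height. For single pairs the depth was too low to place most of them, since the interval held 1 in 27 of 29 pairs and held the genome ratio of 0.683 in all 29. Paired summits lay close together, with a median distance of 17 bp and a maximum of 74 bp. The GSK2879552 peak was the narrower in 23 of the 29 pairs, or 79.3%, beside 81.2% of pairs in the genome, with a median of 160 bp against 243 bp (genome 189 and 241 bp).

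The 2 pairs whose interval excluded 1 both lay to the right of the UGT2B11 interval. At chr4:70145863-70146184 vehicle had 38 tags and GSK2879552 18, a scaled ratio of 0.403 (0.216 to 0.724), the lowest of the cluster. The other was the UGT2B11 flank at chr4:70104916-70105355. Beside the lowest pair, at chr4:70146239-70146399, lay the only pair above 1, with 11 vehicle and 13 GSK2879552 tags (1.01, 0.416 to 2.48). It is named here because of its value.

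**Figure D3:**
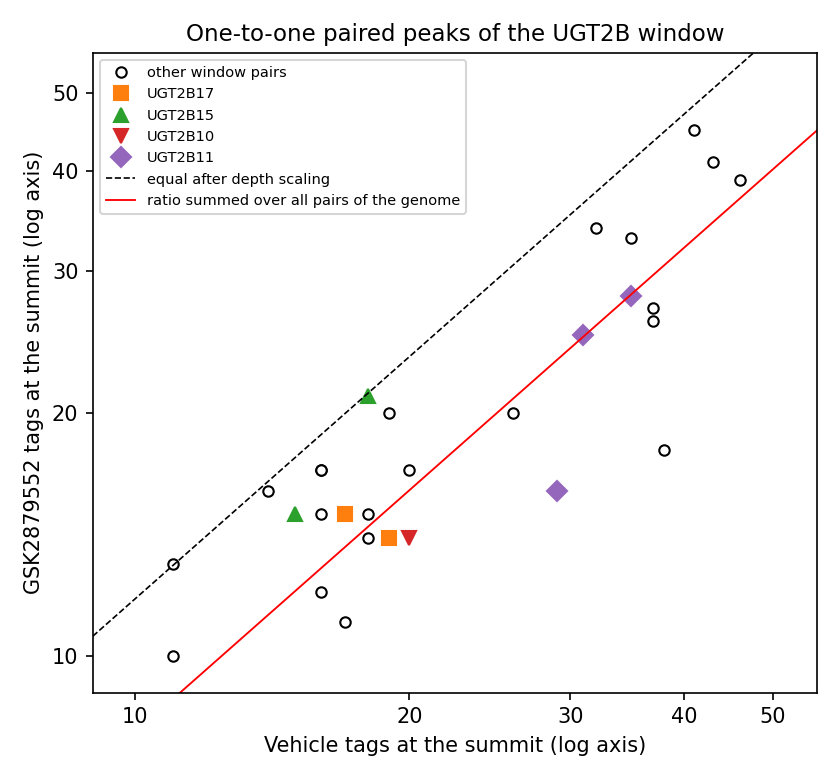
Summit tags of the 29 one-to-one pairs, vehicle on the horizontal and GSK2879552 on the vertical axis, both logarithmic, with a dashed line for equal tags after depth scaling and a solid line for the ratio summed over all pairs of the genome. Coloured symbols are the gene pairs; 28 of 29 points lie below the dashed line, and the points scatter on both sides of the solid one.

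Counted on chromosome 4 alone, most of the tallest peaks lay to the right of the UGT2B11 interval. Of the 10 vehicle peaks with most tags (35 to 48), 8 lay past the UGT2B11 interval, where 28 of all 62 vehicle peaks lay. Of the 10 tallest GSK2879552 peaks (25 to 45), 7 lay there, as did 21 of all 44. Both counts include the UGT2B11 peak nearest the gene's start, only 0.647 kb (vehicle) and 0.70 kb (GSK2879552) past the rounded interval end. In each list 2 of the 10 belonged to a named gene: the UGT2B15 and UGT2B11 peaks with 35 tags each with vehicle, and the UGT2B11 peaks with 28 and 25 tags with GSK2879552. This order does not hold once tags on a second copy of the left side, described at the end, are added. All of them were partnered, and 8 of each set had a partner among the 10 tallest of the other list. At chr4:70296613-70296779 there were 41 vehicle and 45 GSK2879552 tags, a scaled ratio of 0.934 (0.598 to 1.46), which made this the tallest GSK2879552 peak of the cluster. At chr4:70186995-70187372 there were 43 and 41 tags (0.811, 0.516 to 1.27), and at chr4:70254830-70255311 46 and 39 (0.721, 0.458 to 1.13). These 3 were the tallest peaks of the GSK2879552 list.

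Other tall regions in that stretch included closely neighbouring pairs. At chr4:70175421-70175779 there were 35 and 33 tags (0.802, 0.483 to 1.33), but 26 tags against 37 at its neighbour chr4:70176097-70176255 (0.598, 0.348 to 1.01). At chr4:70209333-70209718 there were 37 and 27 tags (0.621, 0.363 to 1.05). The intervals of these 3 overlap each other and those of the 3 tallest, so their order is not resolved. The tall vehicle peak with the lowest ratio, at chr4:70145863-70146184, was given above.

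Left of UGT2B11 the tallest region lay between UGT2B10 and the rest of the cluster. At chr4:69730885-69731302 vehicle had 48 tags, the most of the cluster, in a group of 2 peaks that faced 2 GSK2879552 peaks with 17 and 34 tags (ratio of the highest 0.602, 0.377 to 0.955). To its right, chr4:69771499-69771989 had 32 vehicle and 34 GSK2879552 tags (0.904, 0.541 to 1.51). Wide vehicle peaks at chr4:69885926-69886406 with 34 tags and chr4:69960824-69961381 with 31 tags each faced 2 narrower GSK2879552 peaks, with 12 and 24 tags and with 13 and 24 tags. Of the 34 partnered vehicle peaks, 4 (11.8%) overlapped 2 GSK2879552 peaks, beside 5.11% of those in the genome with 2 or more. Of the 37 partnered GSK2879552 peaks, 1 (2.70%), at chr4:69730783-69731263, overlapped 2 vehicle peaks, beside 0.870% in the genome with 2 or more. These groups were picked out after their values were seen.

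Among unpartnered vehicle peaks the strongest, at chr4:70363784-70364018, had 23 tags (14.6 to 34.5), and the nearest GSK2879552 peak was 1899 bp away. Next came 3 peaks with 18 tags each. The one at chr4:70455752-70455878 had its nearest GSK2879552 peak at 68102 bp, the one at chr4:69898696-69898818 at 7524 bp, and the one at chr4:70314455-70314682 at 143 bp. Another 3 had 17 tags, at chr4:69380920-69381171 and chr4:69434396-69434547 near UGT2B17 and at chr4:69770738-69770853. The GSK2879552 tags at these positions are unknown, because the lists hold only called peaks, so a missing partner is no measured zero.

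The 7 GSK2879552 peaks without a vehicle partner were weaker still, and 4 of them lay between 69.95 and 70.05 Mb. The strongest, at chr4:69891063-69891171, had 14 tags (7.65 to 23.5). In the stretch with 4, peaks at chr4:69958919-69959054 and chr4:69980865-69981055 had 13 and 12 tags, and those at chr4:69959169-69959303 and chr4:69981404-69981503 had 11 each. The same 100 kb also held 5 unpartnered vehicle peaks of 10 to 14 tags, so weak peaks differed between the lists there in both directions. The remaining 2 had 11 tags at chr4:70523981-70524100 and 10 at chr4:70110684-70110803.

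Tall vehicle peaks were more numerous on the right side of the cluster when chromosome 4 alone was counted. From 69.35 to 69.95 Mb, where UGT2B17, UGT2B15 and UGT2B10 lie, there were 27 vehicle and 16 GSK2879552 peaks, and 4 vehicle and 2 GSK2879552 peaks reached 30 tags. From 69.95 to 70.55 Mb, with UGT2B11, there were 35 and 28, and 10 vehicle and 4 GSK2879552 peaks reached 30 tags. The medians were close, at 16 tags on the left and 18 on the right with vehicle, and 15.5 and 17 with GSK2879552. The scaled ratio over paired peaks was 0.793 (0.631 to 0.996, 9 pairs) on the left and 0.708 (0.624 to 0.803, 20 pairs) on the right, with overlapping intervals.

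UGT2B15 and UGT2B10 also had peaks on a second copy of the locus. The hg19 build carries this region as an alternative haplotype of chromosome 4, listed as a sequence of its own. UGT2B17 is known as a gene that many human chromosomes lack. The haplotype held 20 vehicle and 11 GSK2879552 peaks, of which 16 and 11 could be matched in order to peaks of chromosome 4 within 500 bp of a set offset. Set offsets took 2 values that differ by about 118 kb, one left of UGT2B17 and one right of it. On the right the observed offset was not constant. It was 69287353 to 69287434 bp at UGT2B15 peaks and 69287724 to 69287851 bp further right. All 7 vehicle and 2 GSK2879552 peaks of UGT2B17 lay between the matched blocks and none had a counterpart. Of the peaks of UGT2B15, 3 of 5 with vehicle and 3 of 4 with GSK2879552 had one. Of those of UGT2B10, 2 of 3 and 1 of 1 did, and of those of UGT2B11, to the right of the blocks, none. The 2 offsets skip most of the stretch between the blocks, and the matched peaks end to the left of UGT2B11. The lack of counterparts for UGT2B17 and UGT2B11 was thus largely set by the matching and is no measured absence.

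Matched copies had similar tag numbers. Within the window, 10 matched vehicle peaks held 232 tags on chromosome 4 and 240 on the haplotype (ratio 1.03, 0.860 to 1.24). The 7 matched GSK2879552 peaks held 158 and 139 (0.880, 0.695 to 1.11). The sources used here do not say how reads that match both copies were placed, nor how those that match several UGT2B genes, which are close paralogs, were counted. Levels of UGT2B15 and UGT2B10 can therefore not be ranked against those of UGT2B17 and UGT2B11 from chromosome 4 alone.

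With both copies added, the largest UGT2B15 peak had 35 and 30, together 65, vehicle tags. The higher of its 2 GSK2879552 counterparts had 22 and 17, together 39, for a scaled ratio of 0.510 (0.334 to 0.771). The next UGT2B15 region had 42 vehicle and 36 GSK2879552 tags (0.729, 0.454 to 1.17). The UGT2B10 pair had 47 and 26 (0.471, 0.280 to 0.776), so that its interval, which held 1 on chromosome 4 alone, no longer did. These intervals treat tags on both copies as separate reads. If reads were counted on both copies, which is not known, the intervals are too narrow and need not exclude 1. All 3 values lie below 1, and the intervals of the largest UGT2B15 peak and of the UGT2B10 pair exclude it, while all 3 hold the genome ratio of 0.683. The tall region at chr4:69730885-69731302 had 94 and 72 tags (0.652, 0.473 to 0.895). Ranked on both copies, the 10 tallest vehicle peaks had 38 to 94 tags, 6 of them on the left side and 4 past UGT2B11, where the highest had 46. With GSK2879552 they had 30 to 72 tags, again 6 on the left and 4 past UGT2B11. Peaks of at least 30 tags then numbered 9 on the left and 10 on the right with vehicle, and 6 and 4 with GSK2879552. The matching to the haplotype was set up after the lists had been seen.

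**Figure D4:**
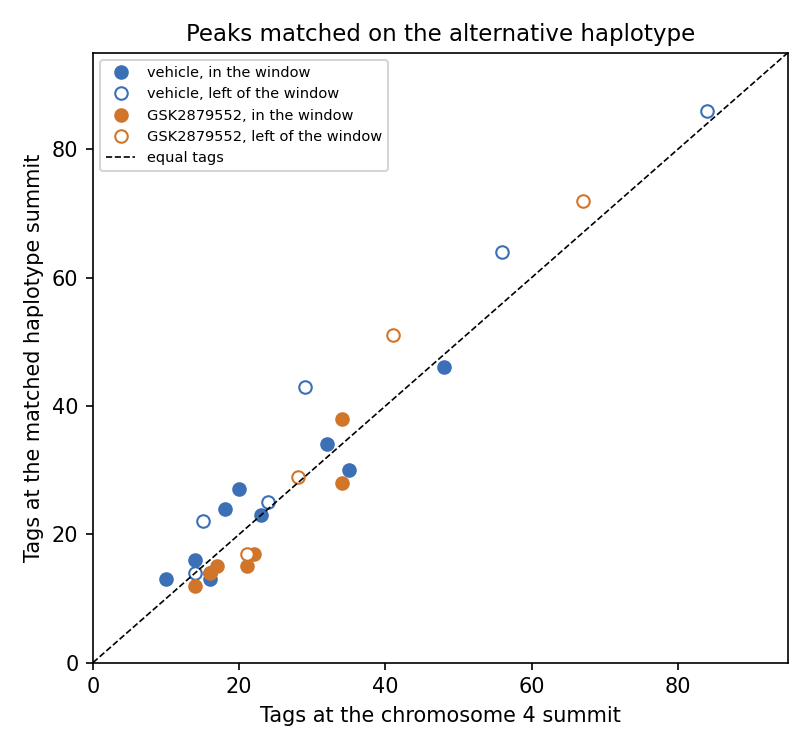
Summit tags of peaks matched between chromosome 4 (horizontal axis) and the alternative haplotype (vertical axis), with a dashed line for equal tags. Filled circles lie in the cluster (10 vehicle, 7 GSK2879552) and open circles to its left; points of both libraries scatter around the line of equal tags.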

How the data were processed

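Open chromatin was measured by ATAC-seq in LNCaP cells, with 1 peak list per condition that pools 2 lanes. Per the submitters' processing notes, the build was hg19 (GRCh37) and the tools included MACS2 2.1.2, a peak caller, BWA 0.7.2 and SAMtools 0.1.18, with no role stated. The sources used here do not describe trimming, read filters, duplicate removal or any cut-site shift. Each deposited peak has a score, a fold (a ratio of summit tags to background, each with 1 added), a −log10 p-value and a −log10 q-value, and both deposited lists end at q of 0.05.

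Summit tags were recovered from the authors' deposited fold and −log10 p, since p is the Poisson chance of more tags at the background; a whole number fitted within 0.001 for 100% of rows of both lists. The inversion and the overlap rules were tested on simulated data. The genome-wide background was 2.31 with vehicle and 2.72 with GSK2879552, and their ratio, 1.18, scaled tags for depth. Read totals were not used here, so whether this ratio reflects depth alone was not tested. With it 28 of the 29 pairs of the cluster were lower with GSK2879552, and without it 20 were. Shares have exact Clopper-Pearson intervals, tags exact Poisson and ratios exact binomial ones. Tags at neighbouring positions come from shared fragments, and tags are not known to be free of PCR copies.

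Peaks were partnered at 1 bp of overlap. Named were the peaks within 25 kb of the 4 genes, the 10 tallest peaks and 5 tallest unpartnered peaks of each list, and the lowest and highest ratios among pairs with at least 60 tags (8 pairs in all). Groups of peaks that are not one-to-one, and 2 pairs with low or high ratios, were named after their values were seen. Members, lists and rules were chosen with earlier results of these data known. Other genes of androgen metabolism were not analysed here, since no gene annotation of hg19 was used. Python 3.11.15, NumPy 2.4.6, pandas 2.3.3, SciPy 1.17.1, Biopython 1.88 and Matplotlib 3.10.9 were used.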

Additional observations from a re-analysis of the deposited data

How the results depend on the processing

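Of 46 alternative values, 37 stayed within counting error or 1.5 times of the reported one and 9 moved. Only the median and summed tag ratios of the cluster have a direction, and 0 of them reversed, whereas peak counts and partner shares could not. Ratios of single genes and pairs were not varied in this way. Before scaling the 2 UGT2B15 pairs had 33 vehicle and 36 GSK2879552 tags, while the pairs of each other named gene had fewer tags with GSK2879552. At a −log10 q of at least 5 the cluster held 50 vehicle and 28 GSK2879552 peaks, beside 143829 and 101402 over chromosomes 1 to 22, X and Y. In both, the relative fall in number was larger than in the full lists, so its size depends on the threshold. Of the 28 GSK2879552 peaks, 100% had a vehicle partner of that level. With a reciprocal overlap of 50%, 63.6% of GSK2879552 peaks were partnered. Without depth scaling the summed ratio was 0.855. With 50 kb instead of 25 kb around the genes, UGT2B10 had 5 vehicle and 3 GSK2879552 peaks, UGT2B11 had 8 and 5, and UGT2B17 had 4 GSK2879552 peaks. Adding the haplotype tags gave a summed ratio of 0.705, and leaving out peaks with a haplotype match gave 0.711; both were chosen after seeing the data. No paired analysis was possible because each condition had 1 library and the lanes, which share 1 peak list, are technical replicates, and no replicate could be left out. Lists of called peaks do not show signal under the calling threshold; at 10 to 48 tags the interval of 27 of 29 single pairs held 1.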
